A study of Mus musculus with 4 samples.

Results

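The Tnmd Sfrp4 fibroblasts of the mouse diaphragm are fibroblasts in which RNA of tenomodulin (Tnmd) and of secreted frizzled-related protein 4 (Sfrp4) was captured in the same cell. They were chosen by their counts of unique molecular identifiers (UMIs), each standing for 1 captured RNA molecule. A fibroblast had at least 4 UMIs in the sum of Pdgfra, Lum, Dpt and Col6a3 and at most 1 in the sum of Ptprc, Csf1r, Cdh5 and Pecam1. A member also had at least 1 Tnmd UMI and at least 2 Sfrp4 UMIs. It had no more than 2 UMIs of Dpp4, Sema3c and Efhd1 together, and no more than 2 of Col6a5 and Fbln7 together. The rule found 212 cells among 9160 diaphragm fibroblasts and 28163 kept cells of the series, 19 of them in mdx5cv diaphragm and 193 in wild-type (WT) diaphragm. The levels of the genes named in the rule follow from the choice and are given only as a description: Tnmd was at 770 CPM in the mdx5cv and 619 CPM in the WT members, with medians of 5 and 3 UMIs a cell, and Sfrp4 at 2304 CPM and 1659 CPM, with medians of 3 and 4 UMIs. One mdx5cv member held 37.1% of the Sfrp4 UMIs. CPM stands for a gene's UMIs over all UMIs of the population, on the usual per-million scale.

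Single-cell RNA sequencing was carried out on cryopreserved mononuclear cells of skeletal muscle, with 1 library each from mdx5cv quadriceps, mdx5cv diaphragm, WT quadriceps and WT diaphragm, all at 14 weeks of age. Mice of the mdx5cv strain carry a mutation in the dystrophin gene in every cell of the body and are a model of Duchenne muscular dystrophy. The labels name no treatment and no sort, and give no number of mice behind a library. With 1 library a group no difference has a replicate check, no p-value was computed, and genotype cannot be told apart from the mice, the preparation or the library.

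Tenomodulin is a transmembrane glycoprotein best known from the cells of tendon and ligament, where the transcription factor scleraxis (Scx) activates its gene. Sfrp4 is secreted and binds Wnt ligands, which keeps them from their Frizzled receptors. The other genes used to mark these fibroblasts are Angptl1, a secreted angiopoietin-like glycoprotein, and Nbl1, also called DAN, a secreted antagonist of bone morphogenetic proteins (BMPs). In the GRCm38 annotation Tnmd lies on chrX:133850980-133865577 (plus strand), Sfrp4 on chr13:19623104-19632994 (plus strand), Angptl1 on chr1:156838562-156861078 (plus strand) and Nbl1 on chr4:139082284-139092993 (minus strand).

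The 250 bases before the RefSeq start of Tnmd, the gene that names the population, and of Thbs4, the matrix gene of the tendon list with the largest ratio in the WT members, are shown 5′ to 3′ on the strand of the gene. They come from RefSeq on GRCm38.p6, at chrX:133850758-133851007 (plus strand) and chr13:92794819-92795068 (minus strand). Capitals mark the E-box letters CANNTG, the kind of motif that scleraxis binds, searched on both strands.
Tnmd: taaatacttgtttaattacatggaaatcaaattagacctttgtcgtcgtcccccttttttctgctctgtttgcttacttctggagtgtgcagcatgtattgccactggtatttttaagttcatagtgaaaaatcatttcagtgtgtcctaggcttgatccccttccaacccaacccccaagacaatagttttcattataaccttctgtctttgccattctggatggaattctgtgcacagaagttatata
Thbs4: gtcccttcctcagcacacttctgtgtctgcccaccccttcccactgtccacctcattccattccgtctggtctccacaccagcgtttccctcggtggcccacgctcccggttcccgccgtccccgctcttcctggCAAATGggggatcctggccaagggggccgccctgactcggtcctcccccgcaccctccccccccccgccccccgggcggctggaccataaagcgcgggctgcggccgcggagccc
The Thbs4 stretch held 1 E-box and the Tnmd stretch held none, and 66.2% of 32851 mouse promoters of the same length held at least 1. These letters say nothing of binding in these cells.

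The mdx5cv diaphragm library held 49612759 UMIs and 7402 kept cells, against 40226833 UMIs and 7516 kept cells in the WT diaphragm library. The members had a median of 6276 UMIs a cell in mdx5cv and 5078 in WT, against 4822 in mdx5cv and 4534 in WT for the other fibroblasts. Summed over the members this gave 141493 UMIs in mdx5cv and 1049885 in WT. One UMI in the mdx5cv members therefore weighs far more than in the WT members, and the limit that a count of 0 allows (3 UMIs) was 21.2 CPM in mdx5cv and 2.86 CPM in WT. The 2 diaphragm libraries shared 16 cell barcodes, and 0 of the members' barcodes were kept in any other library.

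The members made up a smaller share of the fibroblasts in mdx5cv than in WT diaphragm. They were 0.630% of fibroblasts in mdx5cv (19 of 3016, exact 95% interval 0.380 to 0.982%), against 3.14% in WT (193 of 6144, 2.72 to 3.61%). All intervals in the text cover counting error alone, so differences between mice and preparations are not in them. Intervals of CPM and of ratios come from UMIs pooled over cells, so differences between cells are not in them either. Leaving out a member could move such a ratio outside its interval, as for Eln in mdx5cv below. With every cell thinned to 2000 UMIs before the rule was applied, the shares were 0.522% in mdx5cv (15 of 2874, 0.292 to 0.859%) and 1.69% in WT (95 of 5605, 1.37 to 2.07%). The thinned set has 142 fewer mdx5cv and 539 fewer WT fibroblasts. Cells with fewer than 2000 UMIs were left out of it, and the fibroblast thresholds were applied anew to the thinned counts. With full counts, 2848 mdx5cv and 5915 WT fibroblasts had at least 2000 UMIs.

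**Figure D1:**
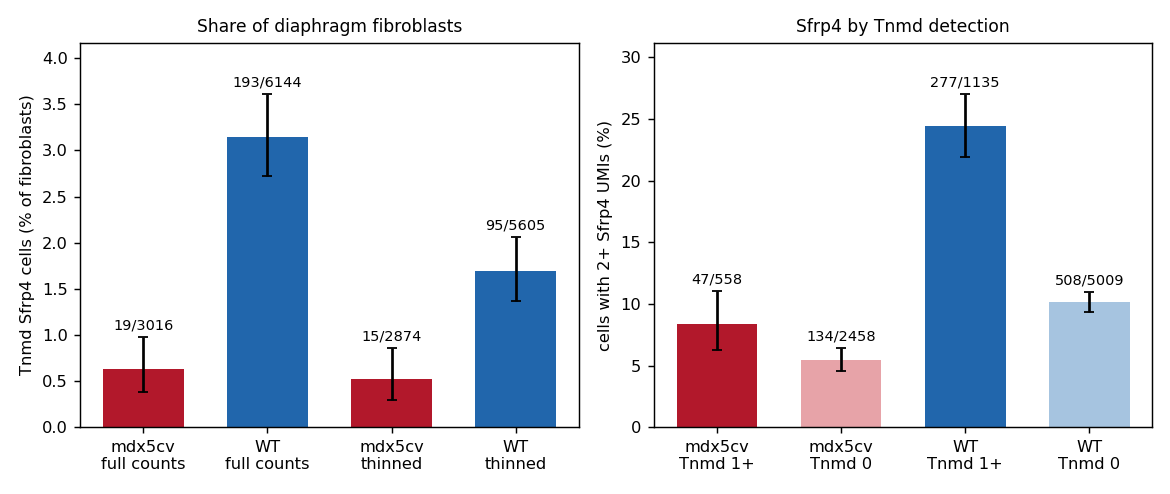
Left: share of diaphragm fibroblasts that met the rule, in percent, from full counts and from cells thinned to 2000 UMIs, with mdx5cv in red and WT in blue. Right: share of fibroblasts with 2 or more Sfrp4 UMIs, in percent, among those with a Tnmd UMI (dark) and those without (pale). Bars start at 0, error bars are exact 95% binomial intervals, and the numbers over them are cells over total. The mdx5cv share was 0.630% and the WT share 3.14% on full counts, and Sfrp4 was detected more often beside Tnmd in both libraries.

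Detection of Sfrp4 differed more between the libraries than that of Tnmd. A Tnmd UMI was present in 18.5% of fibroblasts in mdx5cv (558 of 3016) and in 18.5% in WT (1135 of 6144). At least 2 Sfrp4 UMIs were present in 6.0% of fibroblasts in mdx5cv (181 of 3016) and in 12.8% in WT (785 of 6144). At 2000 UMIs a cell, Tnmd was in 12.2% in mdx5cv and 13.7% in WT, and 2 or more Sfrp4 UMIs were in 2.05% in mdx5cv and 6.48% in WT. Both genes were rare in immune cells, which are not known to express them: 0.230% of 2609 mdx5cv and 0.241% of 415 WT immune cells held a Tnmd UMI, and 0.268% and 0.241% held a Sfrp4 UMI, at median depths of 5677 and 3582 UMIs.

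Sfrp4 was found more often in fibroblasts that also held Tnmd. Among fibroblasts with a Tnmd UMI, 8.42% in mdx5cv (47 of 558, 6.25 to 11.0%) and 24.4% in WT (277 of 1135, 21.9 to 27.0%) held 2 or more Sfrp4 UMIs. Among those with no Tnmd UMI the shares were 5.45% in mdx5cv (4.59 to 6.42%) and 10.1% in WT (9.32 to 11.0%), so the intervals were apart in WT and overlapped in mdx5cv. At 2000 UMIs a cell they were 4.55% beside Tnmd and 1.70% without it in mdx5cv, and 13.0% beside Tnmd and 5.44% without it in WT.

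The upper limits of the rule bear on the libraries unequally. Of the diaphragm fibroblasts, 48.3% in mdx5cv and 5.0% in WT were over the limit on Col6a5 and Fbln7, and 3.15% in mdx5cv and 18.9% in WT were over the limit on Dpp4, Sema3c and Efhd1. With both limits dropped, the share was 1.56% in mdx5cv (47 cells) and 4.51% in WT (277 cells), and thinned as well it was 0.557% in mdx5cv and 1.78% in WT. Just inside the Sfrp4 threshold, with 2 Sfrp4 UMIs, lay 6 mdx5cv and 60 WT members, and just outside it, with Tnmd and 1 Sfrp4 UMI, 21 mdx5cv and 121 WT fibroblasts.

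The members carried the markers of fibroblasts. The 13 fibroblast markers, some of which the rule used, summed to 68576 CPM in the mdx5cv members and 68126 CPM in the WT members, against 61068 CPM and 66002 CPM in the other fibroblasts of the same libraries. In the mdx5cv members 0 UMIs were found of each of the 10 chondrocyte, 8 Schwann cell, 10 lymphocyte and 5 red blood cell markers. In the WT members those lists summed to 9.53, 3.81, 6.67 and 0.953 CPM. Macrophage and monocyte markers summed to 63.6 CPM in the mdx5cv and 19.1 CPM in the WT members, below the 180 CPM and 33.4 CPM of the other fibroblasts. Ptprc and Csf1r of that list were limited by the rule. Pericyte and smooth muscle markers summed to 98.9 CPM in the mdx5cv and 137 CPM in the WT members, against 182 CPM and 165 CPM in the other fibroblasts, and myofibre markers to 28.3 and 13.3 CPM, against 57.0 and 23.8 CPM.

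Other lists summed to more in the members of at least 1 library. Muscle stem cell markers summed to 191 CPM in the mdx5cv and 180 CPM in the WT members, against 237 CPM and 116 CPM in the other fibroblasts, and in WT this came with Sdc4 (ratio 1.58, 1.33 to 1.88) and Chodl (2.73, 1.70 to 4.20), while Myf5, Myod1 and Cdh15 were at 0 in the members of both libraries and Pax7 had 1 UMI in WT and 0 in mdx5cv. Endothelial markers summed to 77.7 CPM in the mdx5cv and 84.8 CPM in the WT members, against 70.6 CPM and 48.8 CPM. Cdh5, Cldn5, Emcn, Tie1 and Cd300lg of that list were at 0 in the members of both libraries, Cdh5 being limited by the rule, and Kdr, Flt1 and Fabp4 gave 59, 13 and 12 of the 89 UMIs in WT and 6, 4 and 1 of the 11 UMIs in mdx5cv. Perineurial and nerve-associated markers summed to 205 CPM in the mdx5cv and 94.3 CPM in the WT members, against 115 CPM and 105 CPM, and 17 of their 29 UMIs in the mdx5cv members were of Dlk1 and 5 of Lgr5. Mesothelial markers summed to 84.8 CPM in the mdx5cv and 127 CPM in the WT members, against 60.7 CPM and 113 CPM, with Msln, Upk3b and Lrrn4 at 0 in the members of both libraries. The part of such cells in the differences described further on was not tested.

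Tendon was the nearest other identity, since Tnmd is itself a tenocyte marker. The tenocyte list summed to 6142 CPM in the mdx5cv members and 3529 CPM in the WT members, against 3159 CPM and 1031 CPM in other fibroblasts, with Thbs4 giving 727 of its 869 UMIs in the mdx5cv and 2936 of its 3705 UMIs in the WT members. Tnmd is in this list and was used by the rule, and without it the sums were 5371 CPM in the mdx5cv and 2910 CPM in the WT members, against 3037 CPM and 927 CPM. The tendon transcription factors had few UMIs. Scx had 0 UMIs in the 19 mdx5cv members and 1 UMI in the 193 WT members, and Mkx had 0 UMIs in mdx5cv and 9 UMIs in 8 WT members. In WT that put Mkx at 8.57 CPM in the members against 2.88 CPM in other fibroblasts, a ratio of 2.98 (1.32 to 5.93). Without the WT member with most Mkx UMIs the ratio was 2.33 (0.907 to 5.01), an interval that includes 1. Both Mkx levels lay under the 20 CPM asked of a measured gene below. In mdx5cv the limit of 21.2 CPM lay above the 4.99 CPM that both genes had in other fibroblasts, so their 0 UMIs show no difference. The cornea and tendon proteoglycan gene Kera was at 0 in both. The members are called fibroblasts here, as the label does, and were not sorted further by tendon genes.

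Angptl1 and Nbl1, the markers that the rule did not use, were both higher in the members in both libraries. Angptl1 was at 1477 CPM in the mdx5cv members (95% counting interval 1284 to 1692) against 879 CPM in other mdx5cv fibroblasts, a ratio of 1.68 (1.46 to 1.93), and without the mdx5cv member with most of its UMIs the ratio was 1.49 (1.28 to 1.73). In WT it was at 3209 CPM in the members (3101 to 3319) against 1340 CPM, a ratio of 2.39 (2.31 to 2.48). Nbl1 was at 565 CPM in the mdx5cv members (448 to 704) against 281 CPM in other mdx5cv fibroblasts, and at 1214 CPM in the WT members (1149 to 1283) against 720 CPM, with ratios of 2.01 (1.59 to 2.51) in mdx5cv and 1.69 (1.59 to 1.79) in WT. Angptl1 was found in 18 of 19 mdx5cv and 191 of 193 WT members, so the difference was one of level: 83.9% of the other mdx5cv and 87.9% of the other WT fibroblasts held it too.

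In WT, levels were graded along both genes of the rule. In WT fibroblasts within the upper limits, Angptl1 was at 3209 CPM in the members and 2897 CPM in cells with Tnmd and 1 Sfrp4 UMI. It was at 2637 CPM with Tnmd and no Sfrp4, 2135 CPM with 2 or more Sfrp4 UMIs and no Tnmd, and 1161 CPM with neither. Thbs4 followed in WT with 2796, 2383, 1782, 1985 and 583 CPM over the same 5 sets of cells. The cells with 1 gene of the pair thus lay between the members and the cells with neither for both Angptl1 and Thbs4 in WT, and the cells just outside the threshold lay close to the members. In mdx5cv the order was less regular, with 1477, 1611, 930, 795 and 732 CPM of Angptl1 and 5138, 3762, 4189, 2840 and 2750 CPM of Thbs4 over the 5 sets. There the members did not lead in Angptl1, and Thbs4 was higher with Tnmd and no Sfrp4 than with Tnmd and 1 Sfrp4 UMI.

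**Figure D2:**
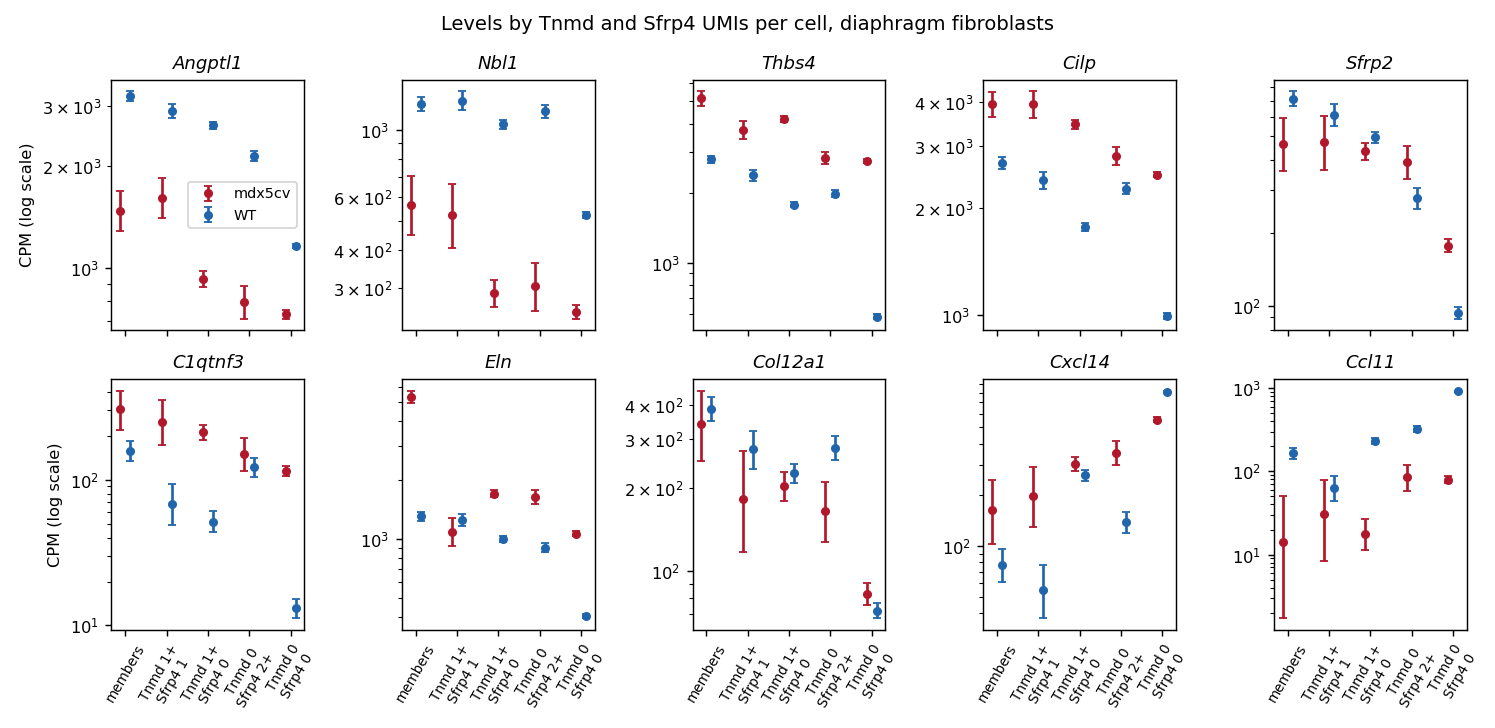
Levels of 10 genes in CPM (log scale) in diaphragm fibroblasts within the upper limits, split by Tnmd and Sfrp4 UMIs a cell, with mdx5cv in red and WT in blue. Points are sums over cells and bars are 95% Poisson intervals, which cover counting error only. Angptl1 in WT steps down from 3209 CPM in the members to 1161 CPM in cells with neither gene, while Cxcl14 in WT runs the other way, from 77.2 to 806 CPM.

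Across all genes, 6892 in mdx5cv and 6254 in WT reached 20 CPM in the members or in the other fibroblasts, the genes of the rule left out. A gene was called where the ratio was past 1.5-fold and its interval excluded 1, which is a rule of size and not a test. In mdx5cv 296 genes (4.29%) were called higher and 194 (2.81%) lower in the members. In WT 269 genes (4.3%) were called higher and 338 (5.4%) lower. The list counts between populations below are to be read against these shares. Scaling by the median of gene ratios in place of the totals moved the log2 ratios by 0.12 in mdx5cv and by -0.01 in WT, which turned the mdx5cv calls into 214 higher and 297 lower. In the mdx5cv members 3 UMIs already make 21.2 CPM. A gene under 20 CPM in the other mdx5cv fibroblasts was thus measured only where the members were high. Such a gene could be called higher but not lower, and the mdx5cv list counts and medians include such genes. The same holds between genotypes for genes under 20 CPM in the WT members. Between populations in WT it holds for genes under 20 CPM in the other WT fibroblasts, such as Dkk3. In either library, a measured gene under 20 CPM in the members could be called lower but not higher. Of the 2997 other mdx5cv fibroblasts, 1456 were over the limit on Col6a5 and Fbln7, which the members could not be. With the other mdx5cv fibroblasts held to the same limits, 339 genes were called higher and 226 lower in the members. Single ratios and list values over such cells are not given below. Because only 19 cells stand behind the mdx5cv members, the genes described next were ranked in WT.

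Wnt antagonists were mostly higher in the WT members. Of the 11 antagonists listed besides Sfrp4, 5 reached 20 CPM in each library. In mdx5cv 2 were called higher and 0 lower, with a median log2 ratio of 0.36, and in WT 4 were called higher and 1 lower, with a median of 1.62, against 0.02 and -0.01 over all genes. The WT median thus lay well off that of all genes and the mdx5cv median less so.

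Sfrp2, a close relative of Sfrp4, was at 466 CPM in the mdx5cv members (361 to 593) against 216 CPM in other fibroblasts, and at 713 CPM in the WT members (663 to 766) against 170 CPM. It was found in 63.2% of the mdx5cv members against 27.8% of the other fibroblasts, and in 54.9% of the WT members against 15.9%. At 2000 UMIs a cell these shares were 36.8% against 18.1% in mdx5cv and 39.9% against 11.4% in WT, so the difference was also seen at equal depth. In WT Sfrp2 also followed Tnmd more than Sfrp4, with 494 CPM in cells with Tnmd alone and 277 CPM in cells with Sfrp4 alone.

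Dkk2, which binds the Wnt co-receptors of the LRP family, had a ratio of 7.08 in mdx5cv (3.91 to 11.9, from 15 UMIs in 6 members) and 3.07 in WT (2.49 to 3.76). Dkk3, a divergent member of the same family, was at 28.3 CPM in the mdx5cv members against 40.0 CPM in other fibroblasts, from 4 UMIs, and its interval of 0.192 to 1.82 includes 1. In WT its 63 UMIs in the members gave a ratio of 4.03 (3.04 to 5.26) over the 14.9 CPM of the other fibroblasts. Dkk3 was thus measured in WT only through the members. Sfrp1 had ratios of 1.28 in mdx5cv, not called, and 1.97 in WT. Kremen1, a receptor through which Dkk proteins act, was the gene of the list called lower in WT, at a ratio of 0.619.

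Genes listed here as targets of Wnt signalling were also mostly higher in the WT members. Of 15 listed, 5 were measured in WT, 4 were called higher and 0 lower (median log2 ratio 0.86). These were Ccn5 (2.30), Apcdd1 (1.957), Tcf7l2 (1.82) and Nkd2 (1.76). In mdx5cv 1 of 6 measured was called higher, Lgr5, from 5 UMIs in 2 cells. The Wnt ligands and receptors held 0 calls by this rule of size among 12 measured in mdx5cv (median log2 ratio 0.62), and 1 higher and 1 lower among 9 measured in WT.

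The matrix genes of tendon were higher together in the WT members. Of 16 tendon genes, 11 were measured in mdx5cv with 3 called higher and 1 lower (median log2 ratio 0.58), and 8 in WT with 6 higher and 0 lower (median 1.21). Over all genes, 4.29% were called higher and 2.81% lower in mdx5cv, and 4.3% higher and 5.4% lower in WT. Thbs4, a thrombospondin of tendon and muscle matrix, was at 5138 CPM in the mdx5cv members (4771 to 5526) against 2853 CPM in other fibroblasts, and at 2796 CPM in the WT members (2696 to 2900) against 881 CPM. The ratios were 1.80 (1.67 to 1.94) in mdx5cv and 3.17 (3.05 to 3.30) in WT. It was found in 100% of the mdx5cv and 95.9% of the WT members, against 86.6% and 49.1% of the other fibroblasts and 4.94% and 2.65% of immune cells.

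Col12a1, a fibril-associated collagen of tendon, had ratios of 3.33 in mdx5cv (2.44 to 4.43) and 2.90 in WT (2.62 to 3.22). Lox, the enzyme that crosslinks collagen and elastin, had ratios of 1.63 in mdx5cv and 1.75 in WT. Cilp, a matrix protein first found in cartilage, had ratios of 1.497 in mdx5cv, just short of the call, and 2.30 in WT. The proteoglycan gene Fmod, with 57.1 CPM in the WT members against 24.6 CPM, and Chodl were the remaining tendon genes called higher in WT. Tnc, the tenascin of injured matrix, was the tendon gene called lower in mdx5cv, with 148 CPM in the members against 336 CPM.

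Other matrix genes went both ways. Of 33 matrix glycoprotein genes measured in mdx5cv, 9 were called higher and 5 lower (median log2 ratio 0.19), and of 32 in WT 7 were called higher and 5 lower (median 0.11). Lamb1, a laminin subunit of basement membrane, was the one called lower in both libraries (0.412 in mdx5cv and 0.499 in WT), and Prg4, the gene of the lubricating proteoglycan lubricin, was called lower in mdx5cv (0.447) and higher in WT (1.68). Of the elastic fibre genes, 1 of 16 was called higher and 0 lower in mdx5cv, and 4 higher and 1 lower of 17 in WT. Eln, which encodes the core protein of elastic fibres, was at 5336 CPM in the mdx5cv members (4962 to 5731) against 1215 CPM in other fibroblasts, and at 1302 CPM in the WT members (1234 to 1373) against 524 CPM. Its ratios were 4.39 in mdx5cv (4.08 to 4.72) and 2.48 in WT (2.35 to 2.63). One mdx5cv member held 26.2% of the Eln UMIs, and the ratio without that cell was 3.56. Mfap4, a microfibril-associated protein, had ratios of 1.22 in mdx5cv (1.07 to 1.37), not called, and 2.33 in WT (2.24 to 2.41).

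Thbs2, a thrombospondin that restrains vessel growth, had ratios of 2.66 in mdx5cv and 3.27 in WT. One mdx5cv member held 44.6% of the Thbs2 UMIs, and the mdx5cv ratio without that cell was 1.54 (1.04 to 2.19). C1qtnf3, a secreted protein related to C1q and tumour necrosis factor, ranked highest in WT by the lower bound of its interval among genes of at least 50 CPM: 304 CPM in the mdx5cv members against 113 CPM, and 158 CPM in the WT members against 30.4 CPM, with ratios of 2.69 (1.94 to 3.63) in mdx5cv and 5.20 (4.37 to 6.14) in WT. The network collagens Col8a1 and Col8a2 had ratios of 2.25 and 2.64 in mdx5cv and of 2.36 and 2.52 in WT.

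The fibrillar collagens differed less. Of 11 listed, 8 were measured in mdx5cv with Col5a2 called higher (1.54) and Col5a3 lower (0.438), and 6 in WT with 1 called higher and 0 lower. Col1a1 was at 7718 CPM in the mdx5cv members against 6824 CPM in other fibroblasts, and at 2469 CPM in the WT members against 1751 CPM, with ratios of 1.13 in mdx5cv and 1.41 (1.35 to 1.47) in WT. Col3a1 had ratios of 1.43 in mdx5cv and 1.62 in WT, where it was the collagen called higher.

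Among signalling genes, 4 of 11 measured guidance cues were called higher in mdx5cv and 4 of 9 in WT, with 0 lower in either, although in cells under the median stress share the median of this list in mdx5cv had the other sign. Slit2, a secreted repellent of axons, had ratios of 2.68 in mdx5cv (1.61 to 4.21) and 2.85 in WT (2.34 to 3.45). The semaphorin gene Sema3d had ratios of 6.75 in mdx5cv, from 3 UMIs (1.35 to 20.8), and 2.35 in WT. In mdx5cv it was measured only through the members. Tgfb3 had ratios of 1.66 in mdx5cv and 2.15 in WT, and Ccn2, a matricellular gene that transforming growth factor beta switches on, had ratios of 1.52 and 1.93. Of the 23 genes of that pathway, 2 were called higher and 3 lower in mdx5cv, and 4 higher and 2 lower in WT. Of 9 measured BMP antagonists in each library, 2 were called higher and 0 lower in mdx5cv, and 2 higher and 1 lower in WT. Besides Nbl1 these were Chrdl1 in mdx5cv, with 5 UMIs that all lay in 1 cell, and in WT Fstl3 (2.52) and, on the low side, Bmper (0.212).

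Kdr, a receptor of vascular endothelial growth factors and one of the endothelial markers above, had ratios of 4.58 in mdx5cv (6 UMIs) and 2.62 in WT (59 UMIs, 1.97 to 3.43). In WT Kdr also followed Tnmd, with 58.9 CPM in cells with Tnmd and no Sfrp4 against 16.1 CPM in cells with neither.

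Of the remaining genes ranked in WT, Cpe, a prohormone-processing carboxypeptidase, had ratios of 3.78 in mdx5cv and 3.49 in WT, and Rflnb, a filamin-binding protein, 2.21 and 2.98, the mdx5cv ratio being 1.78 (0.917 to 3.13) without the member with most of its UMIs. Pdlim3 and Cldn10 had 7 and 3 UMIs in the mdx5cv members and intervals that include 1 there, with ratios of 3.11 and 2.79 in WT. Igfbp3, a carrier of insulin-like growth factors, had ratios of 2.36 in mdx5cv and 2.63 in WT, but 1 mdx5cv member held 68.4% of its UMIs and the mdx5cv log2 ratio without that cell was -0.29. Of the 16 genes ranked highest in WT, 15 had a ratio above 1 in mdx5cv and 12 were called there, 9 of these also without the member that held most UMIs of the gene, the exceptions being Rflnb, Igfbp3 and Angptl1.

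**Figure D3:**
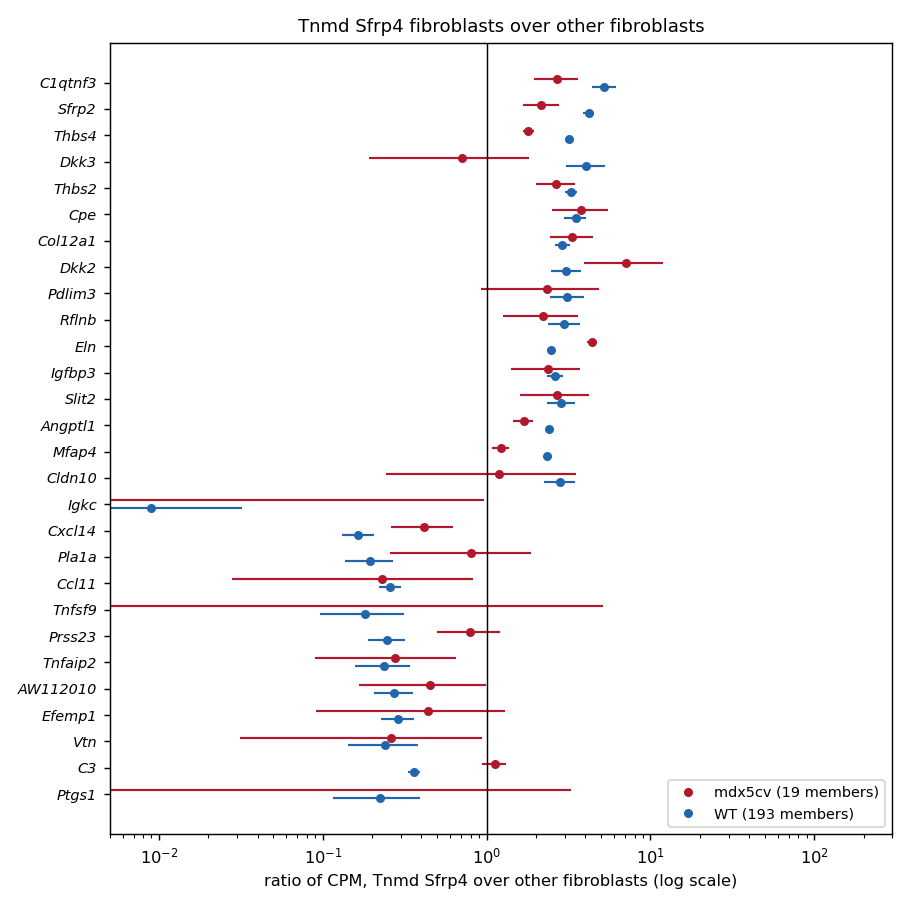
Ratio of CPM (log scale) of the Tnmd Sfrp4 fibroblasts over the other fibroblasts of the same library, for the 16 genes ranked highest and the 12 ranked lowest in WT, with mdx5cv in red and WT in blue. Lines are exact 95% counting intervals, and a line with no point has 0 UMIs in the mdx5cv members. The red intervals are wide because they rest on 19 cells: Dkk2 spans 3.91 to 11.9 in mdx5cv and 2.49 to 3.76 in WT.

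More chemokine genes were called lower than higher in both libraries. Of 28 chemokine and cytokine genes, 17 were measured in each library. In mdx5cv 1 was called higher and 10 lower (median log2 ratio -0.93), and in WT 1 was called higher and 8 lower (median -0.55). The share called lower was thus far above the 2.81% and 5.4% over all genes.

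Cxcl14, a chemokine of parenchymal fibroblasts, was at 163 CPM in the mdx5cv members (103 to 244) against 393 CPM in other fibroblasts, and at 77.2 CPM in the WT members (61.3 to 95.9) against 470 CPM. The ratios were 0.413 (0.262 to 0.621) in mdx5cv and 0.164 (0.130 to 0.204) in WT. Only 2 of the 19 mdx5cv members held it, 1 of them with 87.0% of the UMIs, and 10.9% of the WT members did, against 37.8% of the other mdx5cv and 31.9% of the other WT fibroblasts. Ccl11, the eosinophil attractant eotaxin, was at 14.1 CPM in the mdx5cv members (2 UMIs) against 61.7 CPM, and at 167 CPM in the WT members against 645 CPM, with ratios of 0.229 (0.0277 to 0.830) in mdx5cv and 0.258 (0.221 to 0.300) in WT.

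Cxcl12, which draws and holds leukocytes and stem cells, had ratios of 0.102 in mdx5cv and 0.513 in WT. Ccl2, the monocyte attractant, had ratios of 0.0126 in mdx5cv, from 1 UMI, and 0.652 in WT. With the upper limits of the rule dropped, the mdx5cv cells that met both thresholds held 107 Ccl2 UMIs. The size of the mdx5cv ratio thus depended on these limits. Exceptions were Cxcl1, a neutrophil attractant, called higher in mdx5cv from 28 UMIs of which 92.9% lay in 1 cell and lower in WT at 0.536, and Il34, a ligand of the Csf1 receptor, called higher in WT at 4.55.

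Interferon-response genes, with Cxcl9 and Cxcl10 shared with the chemokine list, were low as well. Of 28 listed, 19 were measured in mdx5cv with 0 called higher and 7 lower (median log2 ratio -0.83), and 11 in WT with 0 higher and 5 lower (median -0.62). In both libraries Ifi204, a sensor of DNA, was called lower (0.351 in mdx5cv and 0.366 in WT). Macrophage and monocyte markers were lower in the members too, as given above, and their part in this was not tested.

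Immediate-early and heat shock genes, which cell dissociation is known to raise, differed between the populations in mdx5cv. Of 21 measured, 9 were called higher and 1 lower in the mdx5cv members (median log2 ratio 0.41), against 0 higher and 1 lower in the WT members (median -0.15). Atf3 had a ratio of 2.40 and Fos of 1.73 in mdx5cv, and 48.6% of the Fos UMIs lay in 1 member. The median share of these genes in a cell's UMIs was 0.700% in the mdx5cv members against 0.753% in other mdx5cv fibroblasts, and their part in the ratios above was not tested.

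Complement genes held 0 calls among 11 measured in mdx5cv, and 1 higher and 4 lower among 10 in WT. C3, the central component, was at 1025 CPM in the mdx5cv members against 917 CPM, and at 570 CPM in the WT members against 1573 CPM, with ratios of 1.12 (0.943 to 1.32) in mdx5cv and 0.362 (0.333 to 0.392) in WT. Genes of the Pi16 Dpp4 fibroblasts, a state of connective tissue sheaths that the rule limits through Dpp4, were lower in WT (0 higher and 8 lower of 16 measured, median log2 ratio -0.56), and held 2 calls higher and 1 lower of 12 in mdx5cv. Of the 5951 other WT fibroblasts, 1160 were over the limit on Dpp4, Sema3c and Efhd1, which the members could not be. The WT values of this list are therefore shaped by the choice and are given only as a description. Igfbp5 was the one of this list called lower in both, at 0.195 in mdx5cv and 0.495 in WT.

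The other genes ranked lowest in WT had small counts in mdx5cv. Tnfaip2, AW112010 and Vtn (vitronectin, an adhesive glycoprotein) were called lower in both libraries, with 5, 6 and 2 UMIs in the mdx5cv members and ratios of 0.277, 0.453 and 0.260 there and of 0.237, 0.273 and 0.241 in WT. Efemp1, the elastic fibre protein fibulin 3, had ratios of 0.440 in mdx5cv (0.0907 to 1.29) and 0.288 in WT (0.227 to 0.360). Pla1a and Prss23 had ratios of 0.799 and 0.793 in mdx5cv, with intervals that include 1, and of 0.194 and 0.247 in WT. Tnfsf9, Ptgs1 and the immunoglobulin chain gene Igkc had 0 UMIs in the mdx5cv members, and ratios of 0.182, 0.225 and 0.00889 in WT. By the estimate of ambient RNA, up to 100% of the 2 Igkc UMIs in the WT members were ambient, and 2.5% of the other WT fibroblasts held its 6175 UMIs there. Of these 12 genes 5 were called lower in mdx5cv as well.

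Between genotypes, 6920 genes reached 20 CPM in the mdx5cv or the WT members. Of these 442 (6.39%) were called higher and 376 (5.43%) lower in the mdx5cv members. In the other fibroblasts 635 (9.95%) were called higher and 674 (10.6%) lower of 6380. The list counts between genotypes are to be read against these shares. Scaling by the median of gene ratios moved the log2 ratios by 0.15 and gave 293 higher and 516 lower. The immediate-early and heat shock genes moved with genotype: their median share of a cell's UMIs was 0.700% in the mdx5cv and 3.05% in the WT members, and 0.753% and 3.20% in the other fibroblasts. Of 21 measured, 21 were called lower in the mdx5cv members and 21 in the other mdx5cv fibroblasts, with median log2 ratios of -1.45 and -1.99. Their part in the genotype differences below was not tested. Among the members and other fibroblasts with a stress share under their library's median, the called ratios of the named genes kept their side of 1, apart from Igfbp3 between populations and Ccn3 between genotypes. Each library was cut at its own median, so the stress share was not matched between genotypes, and 11 mdx5cv members remained.

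The genes of fibrillar collagen were higher in the mdx5cv members. Of 8 measured, 5 were called higher and 0 lower (median log2 ratio 1.40), and in the other fibroblasts 7 of 7 were called higher (median 1.29). Col1a1 was at 7718 CPM in the mdx5cv members against 2469 CPM in the WT members, a ratio of 3.13 (2.91 to 3.36), and the other fibroblasts had 3.90 (3.86 to 3.94). Col3a1 had a ratio of 2.58 (2.48 to 2.69) in the members and 2.93 (2.91 to 2.95) in the other fibroblasts. Genes that fold, modify and crosslink collagen were higher too, with 10 of 18 called higher and 2 lower in the members (median 0.68) and 7 higher and 1 lower of 18 in the other fibroblasts (median 0.50). Plod2, a lysyl hydroxylase, had ratios of 3.38 in the members and 2.18 in the other fibroblasts.

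The genes of activated fibroblasts were higher in mdx5cv, with a smaller median in the members than in the other fibroblasts. Of 16 measured in each, 10 were called higher and 1 lower in the members (median log2 ratio 1.81), and 11 higher and 0 lower in the other fibroblasts (median 2.92). Tnc was at 148 CPM in the mdx5cv against 10.5 CPM in the WT members, a ratio of 14.2 (6.53 to 32.5), and the other fibroblasts had 60.6 (51.8 to 71.4). Timp1, an inhibitor of matrix metalloproteinases, was at 700 CPM in the mdx5cv against 91.4 CPM in the WT members, a ratio of 7.65 (5.72 to 10.2), and the other fibroblasts had 20.1. The log2 difference between these ratios was -2.10 (-3.17 to -1.02) for Tnc and -1.40 (-1.81 to -0.99) for Timp1, with 95% counting intervals. One mdx5cv member held 53.5% of the Timp1 UMIs, and the ratio without the top member of each library was 4.39. The rule kept cells over its upper limits out of the members but not out of the other fibroblasts. Over the limit on Col6a5 and Fbln7 were 48.3% of mdx5cv and 5.0% of WT fibroblasts. Genotype ratios of other fibroblasts within the same limits are not given. The part of these cells in the gaps between members and other fibroblasts, here and below, was not tested.

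Cthrc1, a secreted protein of collagen-producing fibroblasts, had ratios of 8.39 (5.53 to 12.8) in the members and 19.9 (17.4 to 22.9) in the other fibroblasts. Ccn4, a matricellular target of Wnt signalling, had 7.42 (3.47 to 15.9) and 16.5 (14.2 to 19.3). Postn, the gene of periostin, a protein of injured matrix, had ratios of 12.4 (10.5 to 14.7) and 13.5 (13.1 to 14.0). With all cells counted, the log2 difference between members and other fibroblasts was -0.12 (interval -0.36 to 0.12). One mdx5cv member held 65.4% of the Postn UMIs. Without the top member of each library the ratio was 5.35 (4.25 to 6.71), below that of the other fibroblasts, so the small difference depended on the top cells.

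Elastin differed more between genotypes in the members than in the other fibroblasts. Eln was at 5336 CPM in the mdx5cv and 1302 CPM in the WT members, a ratio of 4.10 (3.75 to 4.48), and the other fibroblasts had 2.32 (2.27 to 2.37), a log2 difference of 0.82 (0.69 to 0.95). Without the member with most Eln UMIs in each library the ratio in the members was 3.42. Other genes named by rank as higher in the mdx5cv members were Fkbp11, a prolyl isomerase of the secretory pathway (6.55, other fibroblasts 2.82), Mmp3, a matrix metalloproteinase (6.28 and 3.97), Ndnf, a secreted neurotrophic factor (8.04 and 2.24), Plac8 (27.2 and 4.55) and Nrep (5.57 and 9.32). Ndnf and Plac8 had 13 and 11 UMIs in the mdx5cv members, and up to 23.6% of the 3 Plac8 UMIs in the WT members were estimated to be ambient. The mdx5cv member with most UMIs of the gene held 53.8% for Ndnf, 54.5% for Plac8 and 50% for Mmp3. Without the top member of each library these ratios were 6.23, 20.2 and 4.17.

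Some high ratios came from 1 cell. The 8 Flrt3 UMIs and the 14 Rgs2 UMIs of the mdx5cv members each lay in a single cell. Dlk1, an epidermal growth factor-like membrane protein of progenitors, had 17 UMIs in 2 mdx5cv members, 76.5% of them in 1 cell, and 0 UMIs in the WT members, so it was at least 42.0-fold higher against a floor of 3 UMIs over the WT members, with a counting interval that starts at 30.6. Without that cell, 4 UMIs were left and the ratio against the same floor was 10.8, with an interval from 5.35. Of the 14 genes ranked highest, 12 were still called without the member that held most UMIs of the gene in each library, and 12 were called higher in the other fibroblasts as well.

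**Figure D4:**
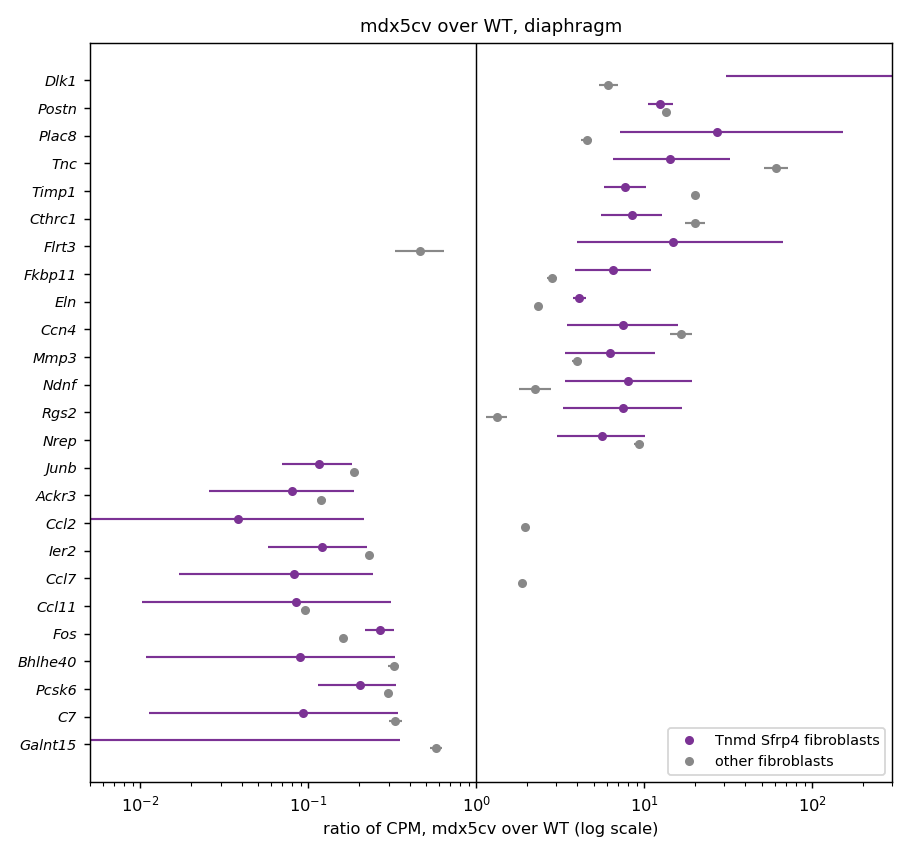
Ratio of CPM (log scale) of mdx5cv over WT diaphragm for the 14 genes ranked highest and 11 of the 12 ranked lowest in the Tnmd Sfrp4 fibroblasts (purple), with the same ratio in the other fibroblasts (grey). Lines are exact 95% counting intervals, and a line with no point has 0 UMIs in 1 of the libraries. Most pairs lie on the same side of 1, and Ccl2, Ccl7 and Flrt3 lie on opposite sides.

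Angptl1 and Nbl1, the markers that the rule did not use, were lower in the mdx5cv members. Angptl1 had 1477 CPM in the mdx5cv against 3209 CPM in the WT members, a ratio of 0.460 (0.398 to 0.530), and the other fibroblasts had 0.656. Nbl1 had 565 CPM in the mdx5cv against 1214 CPM in the WT members, a ratio of 0.466 (0.367 to 0.584), and the other fibroblasts had 0.390. Sfrp2 had a ratio of 0.654 in the members and 1.27 in the other fibroblasts. Thbs4 had ratios of 1.84 (1.69 to 1.99) in the members and 3.24 (3.19 to 3.29) in the other fibroblasts, so the gap between members and other fibroblasts was narrower in mdx5cv for Thbs4 (log2 difference -0.82, interval -0.94 to -0.70), Sfrp2 (-0.96, -1.33 to -0.59) and Angptl1 (-0.51, -0.71 to -0.31). The small leucine-rich proteoglycans held 0 calls higher and 5 lower of 10 measured in the members (median log2 ratio -0.53).

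Of 16 chemokine and cytokine genes measured in the members, 3 were called higher and 4 lower (median log2 ratio -0.11), and of 20 in the other fibroblasts 10 were called higher and 5 lower (median 0.43). Ccl11 was lower in both, with 14.1 CPM in the mdx5cv against 167 CPM in the WT members, a ratio of 0.0848 (0.0102 to 0.311), and 0.0956 in the other fibroblasts. Ccl2 had 1 UMI in the mdx5cv members, 7.07 CPM, against 187 CPM in the WT members, where 1 cell held 54.1% of the UMIs (ambient estimate up to 44.4% in mdx5cv), and Ccl7 had 3 UMIs, 21.2 CPM, against 257 CPM. The ratios were 0.0379 for Ccl2 (0.000954 to 0.213) and 0.0824 for Ccl7 (0.0169 to 0.243), and the other fibroblasts had 1.95 (1.90 to 2.01) and 1.86 (1.80 to 1.93). With the upper limits on Col6a5, Fbln7, Dpp4, Sema3c and Efhd1 dropped, the log2 ratio of Ccl2 was 0.75, so its direction depended on these limits. Interferon-response genes held 5 calls higher and 0 lower of 14 measured in the members (median log2 ratio 0.49) and 13 higher and 2 lower of 19 in the other fibroblasts (median 1.24).

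The Pi16 Dpp4 genes were lower in the mdx5cv members, with 0 higher and 11 lower of 14 (median log2 ratio -1.06), and in the other fibroblasts with 0 higher and 15 lower of 16 (median -1.68). Ackr3, a scavenging receptor of Cxcl12, had ratios of 0.0794 (0.0257 to 0.187) in the members and 0.119 in the other fibroblasts, with 5 UMIs in the mdx5cv members. Also ranked lowest were the immediate-early genes Junb (0.116), Ier2 (0.121) and Fos (0.266), and with them Bhlhe40 (0.0894), Pcsk6 (0.202), a proprotein convertase, and C7 (0.0933), a late complement component. Galnt15 had 0 UMIs in the mdx5cv members, against 80 UMIs in the WT members. Of the 12 genes ranked lowest, 10 were called lower in the other fibroblasts as well.

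A few more genes were named for the size of the difference between members and other fibroblasts. Prg4 was at 170 CPM in the mdx5cv against 426 CPM in the WT members, a ratio of 0.398 (0.253 to 0.601), and the other fibroblasts had 1.496. Cst3, the protease inhibitor cystatin C, was at 2905 CPM in the mdx5cv and 3488 CPM in the WT members, a ratio of 0.833 (0.750 to 0.922), and the other fibroblasts had 1.98. Gda, guanine deaminase, had 8 UMIs in the mdx5cv members and a ratio of 5.40, and the other fibroblasts had 0.777.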

How the data were processed

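The deposited files hold raw, unfiltered UMI counts per gene and barcode, made by the authors with Cell Ranger 5.0.0 on mm10 per the submitters' processing notes (the matrix header names Cell Ranger 4). Their gene annotation: not given in the sources used here. Kits were 10x 3′ v3.1, with 5000 cells targeted. Cells had at least 1000 UMIs, 500 genes and at most 15% mitochondrial UMIs.

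Within each library, a population's UMIs were pooled and expressed as CPM of its total. Ratios carry exact conditional 95% intervals, and shares carry Clopper-Pearson intervals. Counts of 0 were set to 3 for a ratio, also in list medians. The recovery of known changes was tested on simulated data. Computing used Python 3.11.15, numpy 2.4.6, scipy 1.17.1, pandas 2.3.3 and scanpy 1.11.5. Gene positions are from GENCODE M21, matched for 99.6% of 32285 identifiers.

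The members, lists and rules were chosen with earlier results of these data known. Genes ranked between populations had at least 50 CPM and the interval bound nearest 1 farthest from it, in WT alone because mdx5cv had fewer than 50 members: the 16 highest and 12 lowest. Genotype ratios were ranked likewise (14 and 12), and so were their differences between members and other fibroblasts (6 and 6, delta-method intervals). Left out were rule genes, genes of mitochondria, ribosomes and haemoglobin, Xist, Y-linked, Riken and predicted genes, and genes with over 20% estimated ambient origin in the population where they were higher (for the differences, in the mdx5cv members). That estimate, from 38 markers of immune cells, red cells and myofibres in barcodes of 10 to 100 UMIs, allowed at most 0.937% of UMIs in the mdx5cv members and 1.53% in the WT members. One gene among the 12 genotype ratios ranked lowest is not reported here. List genes that stand outside these ranks were named to say what a list holds, with their values seen.

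Scrublet's automatic threshold called 331 mdx5cv and 0 WT diaphragm cells, so no doublets were removed and the 438 mdx5cv and 452 WT cells with the highest scores were left out as an alternative.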

Additional observations from a re-analysis of the deposited data

Results flagged for a closer look

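Of the genes named by rank, 6 were called one way between mdx5cv and WT in the Tnmd Sfrp4 fibroblasts and the other way in the other diaphragm fibroblasts. These differences have 1 library a group behind them and were not tested over replicates. The ratios were 1.80 in the members and 0.583 in the other fibroblasts for C3, 14.8 and 0.461 for Flrt3, 2.83 and 0.148 for Scg3, 2.33 and 0.284 for Ccn3, 0.0379 and 1.95 for Ccl2, and 0.0824 and 1.86 for Ccl7. The 8 Flrt3 UMIs of the mdx5cv members lay in 1 cell, as did 75.0% of the Scg3 and 68.8% of the Ccn3 UMIs, against 21.4% of the C3 UMIs.

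The quadriceps libraries, which enter no comparison above, also held cells that met the rule: 4 of 1449 fibroblasts in mdx5cv (0.276%, exact 95% interval 0.0753 to 0.705%) and 13 of 844 in WT (1.54%, 0.823 to 2.62%). The 13 WT quadriceps cells carried 178 Fmod UMIs, or 3174 CPM, and 141 Tnmd UMIs, or 2515 CPM, with 2 UMIs of Scx and 3 of Mkx. The 193 WT diaphragm members had 57.1 CPM of Fmod and 619 CPM of Tnmd. The 4 mdx5cv quadriceps cells had 228 CPM of Fmod (6 UMIs), 457 CPM of Tnmd (12 UMIs) and 6581 CPM of Thbs4 (173 UMIs), against 5138 CPM of Thbs4 in the mdx5cv diaphragm members. No call was made on so few cells.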

How the results depend on the processing

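Of 111 gene results recomputed under 14 alternatives, 6 that were called changed their side of 1. Of these 111 and the 97 list medians together, 104 fell outside the interval of the main result under at least 1 alternative. In mdx5cv the log2 ratio of Igfbp3 between members and other fibroblasts was -0.84 with a mitochondrial limit of 5%, -0.41 in cells under the median stress share, -0.56 in cells thinned to 2000 UMIs and -0.29 without the member with most of its UMIs. Rflnb was at -0.37 with stricter thresholds (2 Tnmd and 3 Sfrp4 UMIs), and Vtn, then with 0 UMIs, at 0.29 when thinned. Between genotypes Ccn3 was at -0.15 with the 5% limit, -2.16 under the median stress share and -0.25 without its top cell, Scg3 at -0.0106 without its top cell, and Ccl2 at 0.75 with the upper limits dropped. The member share was 0.265% in mdx5cv and 1.497% in WT with stricter thresholds, 1.33% and 5.11% with 1 Sfrp4 UMI allowed, 1.56% and 4.51% with the upper limits dropped, and 1.69% in WT when thinned. Genes called lower in the mdx5cv members than in other fibroblasts numbered 109 with the 5% limit, 115 with stricter thresholds, 115 under the median stress share, 40 when thinned and 297 with median scaling. In WT, with no filter on low values, 504 were called higher and 531 lower. Between genotypes, calls lower were 244 with the 5% limit, 240 with stricter thresholds, 647 with the limits dropped and 138 when thinned, and calls higher were 277 when thinned and 293 with median scaling. Apart from the shift of median scaling the causes were not tested. Dropping the upper limits and leaving out a top cell were added after the data were seen. No paired analysis was possible because each group has 1 library. With 19 mdx5cv members, a gene under 21.2 CPM there is within the limit that a count of 0 allows.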
